A study of Mus musculus with 153 samples.

Results

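Hair shaft and inner root sheath genes are the keratins and their partners that build a growing hair. The set examined here lists 30 genes by name. It holds 13 type I and type II hair keratins of the shaft, the 8 keratins Krt25 to Krt28 and Krt71 to Krt74 of the inner root sheath, 5 regulators of hair differentiation and 4 other follicle genes. No threshold on a measured value enters the list. Of the 30 genes, 27 were measured, each by 1 probe set that carries its symbol alone, out of 18810 genes on the array. They were the 8 sheath keratins, 10 of the 13 shaft keratins, the 5 regulators (Foxn1, Msx2, Dlx3, Gata3 and Hr) and the 4 others (Padi3, Tchh, Gprc5d and Liph). Krt81, Krt83 and Krt85 had no probe set of their own and are not analysed here.

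The samples were tail skin from untreated 8-week-old mice, frozen on collection, and each mouse had 1 Affymetrix array. The mice came from a backcross: Mus spretus males and FVB/N females without Hras gave F1 females, which were mated to FVB/N males that were Hras -/- or Hras -/+. Hras encodes a small GTPase of growth factor signalling. The compared groups were 37 HET mice (Hras +/-, 1 null copy) and all other mice, which were WT (Hras +/+), and together they were 81 males and 70 females. Every mouse of a backcross carries its own mixture of Mus spretus and FVB/N chromosomes, and that mixture was not used here. The labels do not say which sire or litter a mouse came from. In this cross a WT mouse took its maternal Hras copy from Mus spretus and had an Hras -/+ sire. A HET mouse had at least 1 of these but need not have both. In the comparison of HET and WT mice, the null copy cannot be told apart from these differences.

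Values are on the log2 scale, with the arrays processed in 3 plates of 49, 46 and 56 mice, of which 18.4%, 21.7% and 32.1% were HET. The median over all probe sets lay between 4.67 and 4.88 on every array, and the highest value of any probe set on an array lay between 12.7 and 13.2. A further 2 arrays, both of WT males on plate 2, are labelled outliers and were left out of the main fits. One of them was lower than every mouse of the main fits in 16 of the 27 genes, and results that move when both are put back are given with and without them. Hras itself is not reported here, and no check of the genotype labels rests on it.

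A hair grows from matrix cells at the base of the follicle, which divide and then fill with keratin. The inner root sheath is a rigid sleeve that moulds the shaft, and its cells die and are shed before the hair leaves the skin, while the shaft itself is held together by hair keratins linked to keratin-associated proteins. A type I keratin always pairs with a type II keratin to make a filament. The keratins of the inner root sheath and most of those of the shaft are transcribed in growing follicles and fall silent when follicles rest. Mouse tail skin also has scales, plates of hard epidermis between the hair groups, and Krt36 and Krt84 are hair keratins that the scale epidermis makes too.

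The hair keratins were among the most variable transcripts of the skin. The standard deviation between mice, after genotype, sex and plate, had a median of 0.74 (log2) over the 27 genes, against 0.22 over all 18810 genes. Krt71, the type II keratin found through all layers of the inner root sheath, lay between 9.56 and 11.86 with a median of 10.76 in HET mice, and between 9.02 and 12.06 with a median of 11.09 in WT mice. Krt31, a type I keratin of the hair cortex, lay between 7.21 and 11.60 with a median of 9.90 in HET mice, and between 7.72 and 11.94 with a median of 10.28 in WT mice. The HET and WT ranges overlapped almost completely for both genes. The mouse with the most Krt31 had 26.5-fold more than the mouse with the least. For Krt71 the same ratio was 8.20-fold. The standard deviations of the 8 sheath keratins lay between 0.62 and 0.81. Those of the cortex keratins Krt31, Krt33a, Krt33b, Krt34 and Krt86 and of Krt32, Krt35 and Krt82, which belong to the cuticle or the cells just above the matrix, lay between 0.75 and 0.92. Each of these 16 keratins was at or above the 98.4th percentile of all genes by this measure.

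Krt36 and Krt84 were different. Krt36 lay between 11.81 and 12.32 with a median of 12.09 in HET mice, and between 11.02 and 12.37 with a median of 12.05 in WT mice. Krt84 lay between 11.98 and 12.40 with a median of 12.23 in HET mice, and between 11.20 and 12.40 with a median of 12.22 in WT mice. Their standard deviations were 0.19 and 0.15, at the 29.1 and 11.9 percentiles of all genes. Both transcripts sat close to the top of the arrays' range, where a probe set has little room to rise, and the part of this in their small spread was not tested. The lowest value of both came from 1 WT male on plate 2.

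The regulators varied less than most of the keratins. Msx2, a homeobox factor of the matrix and shaft, had a standard deviation of 0.54, and the homeobox factor Dlx3 had 0.37. It was 0.29 for Foxn1, the forkhead factor missing in nude mice. Gata3, a factor needed for the inner root sheath, had 0.21, and Hr, the corepressor missing in hairless mice, had 0.16. Of the partner genes, Padi3 and Tchh varied as widely as the sheath keratins, with 0.75 and 0.67. Tchh encodes trichohyalin, a protein that hardens the sheath and the medulla of the hair, and Padi3 encodes an enzyme that converts its arginines to citrulline. Gprc5d, a receptor gene of hard keratin-forming cells, reached 0.88. Liph, a phospholipase gene whose loss causes woolly hair in humans, reached 0.26.

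**Figure D1:**
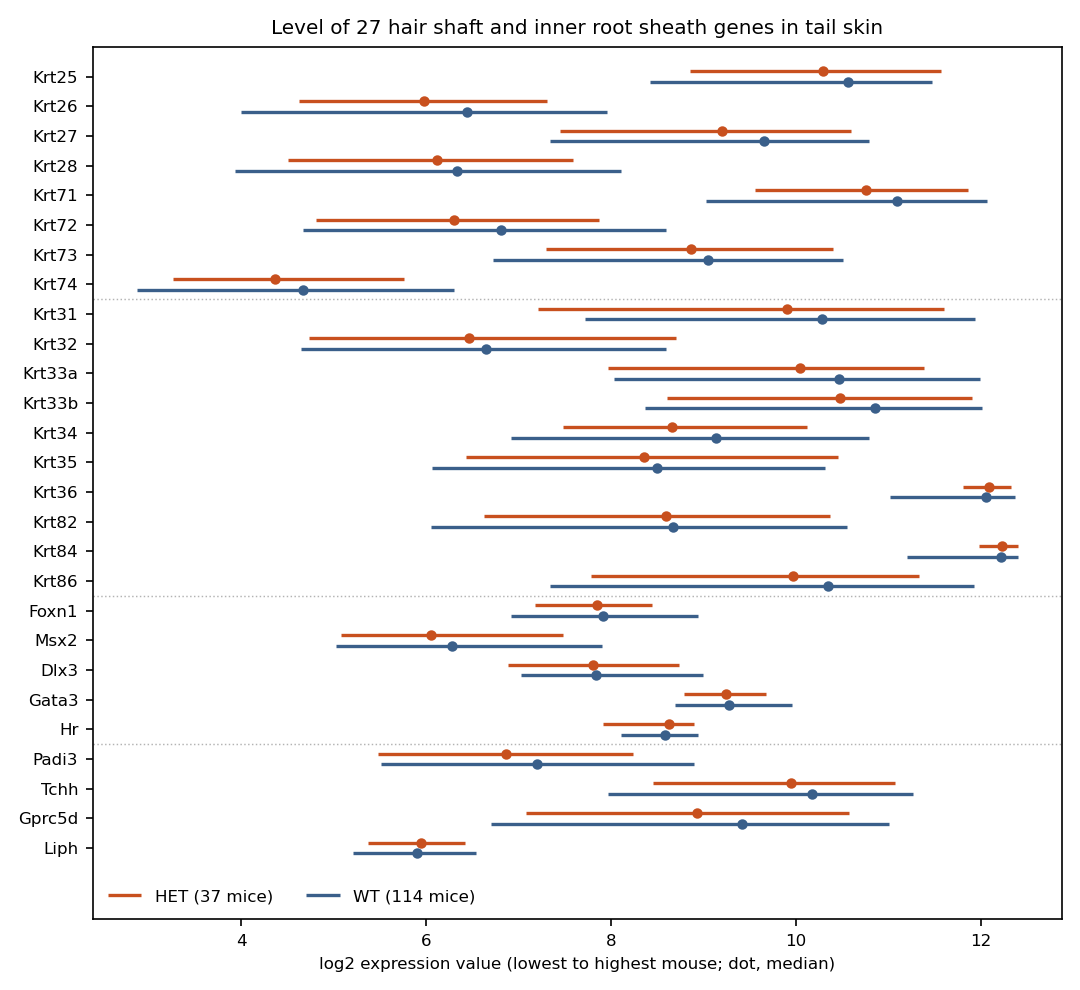
Level of each of the 27 measured genes on the log2 scale (lines, lowest to highest mouse; dots, median), with 37 HET mice above the WT mice for each gene. Dotted lines separate sheath keratins, shaft keratins, regulators and other genes. The HET and WT ranges overlap for all 27 genes, and Krt36 and Krt84 span a far narrower range than the other keratins.

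The keratins of one family lie side by side, the type I genes on chromosome 11 and the type II genes on chromosome 15. RefSeq upstream sequences (build GRCm38.p6) were available for 21 of the 30 genes. Shown are 250 bases before the annotated start of a sheath pair whose levels moved together (Krt71 and Krt25), and of shaft keratins that varied widely (Krt31 and Krt82) beside those with little spread (Krt36 and Krt84). Each is written 5′ to 3′ on the strand of its gene, and capitals mark the TATA box core TATAAA and the string CTTTGAAG, an extended form of the LEF1/TCF core, on either strand.
Krt71, chr15:101743098-101743347, minus strand: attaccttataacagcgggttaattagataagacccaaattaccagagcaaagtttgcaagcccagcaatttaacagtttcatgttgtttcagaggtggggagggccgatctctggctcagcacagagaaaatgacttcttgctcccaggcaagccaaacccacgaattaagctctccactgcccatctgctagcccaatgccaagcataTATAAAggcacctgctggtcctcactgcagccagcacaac
Krt25, chr11:99322952-99323201, minus strand: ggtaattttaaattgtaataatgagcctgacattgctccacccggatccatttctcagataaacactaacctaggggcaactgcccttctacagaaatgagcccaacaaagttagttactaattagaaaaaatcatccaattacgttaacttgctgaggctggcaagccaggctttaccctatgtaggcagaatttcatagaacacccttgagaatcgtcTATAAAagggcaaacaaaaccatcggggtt
Krt31, chr11:100050552-100050801, minus strand: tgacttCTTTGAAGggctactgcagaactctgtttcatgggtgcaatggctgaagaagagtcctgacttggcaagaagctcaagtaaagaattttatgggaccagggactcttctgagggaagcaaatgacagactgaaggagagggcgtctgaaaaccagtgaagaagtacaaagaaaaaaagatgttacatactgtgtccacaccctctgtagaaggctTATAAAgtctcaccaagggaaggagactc
Krt82, chr15:101550660-101550909, minus strand: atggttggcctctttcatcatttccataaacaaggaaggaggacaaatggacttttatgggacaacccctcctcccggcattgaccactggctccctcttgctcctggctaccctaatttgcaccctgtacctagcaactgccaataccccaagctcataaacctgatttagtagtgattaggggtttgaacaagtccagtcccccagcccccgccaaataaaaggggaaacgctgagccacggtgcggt
Krt36, chr11:100105627-100105876, minus strand: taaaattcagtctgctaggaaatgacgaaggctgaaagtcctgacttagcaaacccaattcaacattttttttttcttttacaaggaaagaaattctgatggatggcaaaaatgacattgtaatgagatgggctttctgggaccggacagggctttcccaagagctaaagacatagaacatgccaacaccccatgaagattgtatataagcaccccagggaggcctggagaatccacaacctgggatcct
Krt84, chr15:101532821-101533070, minus strand: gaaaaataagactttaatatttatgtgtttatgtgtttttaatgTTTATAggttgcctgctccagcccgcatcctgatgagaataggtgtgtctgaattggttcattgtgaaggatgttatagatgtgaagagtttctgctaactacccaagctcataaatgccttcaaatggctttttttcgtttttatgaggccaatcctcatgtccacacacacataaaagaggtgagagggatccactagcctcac
TATAAA was found in 13 of the 21 members over a 300-base window, 250 before the start and 50 after it, against 13.6% of all 32851 windows in the table. In Krt25, Krt26, Krt28 and Krt73 of the sheath its first base stood exactly 30 bases before the start, in Krt31 and Krt32 of the shaft 29 bases before it, and in Krt34 31 bases before it. Krt71 had it 40 bases before the start, Krt33b 47 and Krt27 15. Krt36 and Krt82 had no TATAAA in the window. Krt84 and the sheath gene Krt72 had it only on the opposite strand, 206 and 203 bases before the start. Only the exact string TATAAA was searched, so near forms, such as the tatataag printed for Krt36, were not counted. CTTTGAAG was found in Krt31, Krt32, Krt33b and Krt34, 240 to 247 bases before the start, and in 1.66% of all windows. These 4 type I shaft genes stand in one row on chromosome 11 and are closely related copies, so they are not separate observations. Krt36, 2 genes further along the same row, had no match.

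The other strings searched, on both strands, were CTTTGA (6 members, 16% of all windows, including every CTTTGAAG), TAATTG of the MSX and DLX factors (5 members, 8.00%) and AGATAA of the GATA factors (5 members, 11.2%). The AGATAA matches were in Krt25, Krt27, Krt71, Krt73 and Tchh, and those of TAATTG in Krt25, Krt26, Krt28, Krt73 and Gprc5d. TTTATNG, which can overlap TATAAA on the other strand, was in 11 members and 10.9% of windows, and GCTAAAC was in 0 members and 1.92% of windows. A match describes letters in a window and was not tested as a binding site.

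Sheath and shaft rose and fell together from mouse to mouse. Correlations were taken over all mice on what remained after genotype, sex and plate. All pairs of genes in a mouse share 1 array, and the mean level of the sheath keratins had r = 0.25 with the array's median over genes. Of the 351 pairs of members, 272 were positively and 39 negatively correlated at an adjusted p under 0.05 (permutation test with 100000 draws, two-sided, adjusted over 351 pairs), and 40 were not called. With the 2 arrays labelled outliers put back, 280 pairs were called in place of 311. Against the single sheath gene Krt71, 8.91% of all genes were called positive and 8.80% negative. Among the 16 keratins other than Krt36 and Krt84, all 120 pairs were positive, with r between 0.79 and 0.97. In bulk skin, fewer cells of a type and less RNA in each of those cells cannot be told apart.

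Among keratins, 3 pairs reached r = 0.97. They were Krt25 with Krt71 and Krt28 with Krt73, each a type I and a type II keratin of the sheath encoded on different chromosomes, and Krt31 with Krt33a, both type I keratins of the cortex. For Krt25 and Krt71 r was 0.97 (rho = 0.96, permutation p = 1.0e-05 for both, adjusted p = 1.5e-05), and it was 0.97, 0.98 and 0.95 on plates 1, 2 and 3. That p is the smallest the draws can give. Leaving out the 2 mice with the most extreme Krt25 gave r = 0.96. Within the sheath, the median r over 28 pairs was 0.91. The 5 cortex keratins had a median r of 0.94 over 10 pairs, and Krt32, Krt35 and Krt82 had 0.96 over 3 pairs. In the cortex, the type I gene Krt31 and the type II gene Krt86 had r = 0.92 (rho = 0.93, permutation p = 1.0e-05 for both, adjusted p = 1.5e-05; 0.93, 0.95 and 0.87 by plate, 0.91 without 2 mice).

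Pairs that crossed the border between shaft and sheath were nearly as tight. Krt71 and the shaft keratin Krt86 had r = 0.87 (rho = 0.87, permutation p = 1.0e-05 for both, adjusted p = 1.5e-05; 0.92, 0.92 and 0.80 by plate, 0.85 without 2 mice). Krt25 of the sheath and Krt35 of the lower shaft had r = 0.91 (rho = 0.93, permutation p = 1.0e-05 for both, adjusted p = 1.5e-05; 0.93, 0.89 and 0.92 by plate, 0.91 without 2 mice). The sheath keratins had a median r of 0.90 with Krt32, Krt35 and Krt82 and of 0.88 with the cortex keratins. Those 3 shaft keratins had the same median r, 0.88, with the cortex keratins of their own structure. Krt35 and Krt86, both shaft genes, had r = 0.82 (rho = 0.84, permutation p = 1.0e-05 for both, adjusted p = 1.5e-05; 0.88, 0.91 and 0.69 by plate, 0.81 without 2 mice).

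Averaged over its genes, the level of 8 shaft keratins followed that of the 8 sheath keratins with r = 0.96 (rho = 0.97; 0.98, 0.96 and 0.96 by plate). The sheath average lay between -1.83 and 1.51 (log2, relative to the gene means) and the shaft average between -2.19 and 1.77. A single axis carried 89.6% of the variance of these 16 keratins. The next axis carried 3.62%, and it did not separate shaft from sheath. At one end stood Krt35 (r = -0.25 with the axis), Krt32 and Krt82 (-0.23 each) of the lower shaft together with Krt28 (-0.22) and Krt73 (-0.21) of the sheath. At the other end stood Krt34 (0.32) and Krt86 (0.29) of the cortex together with Krt26 (0.20) of the sheath.

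**Figure D2:**
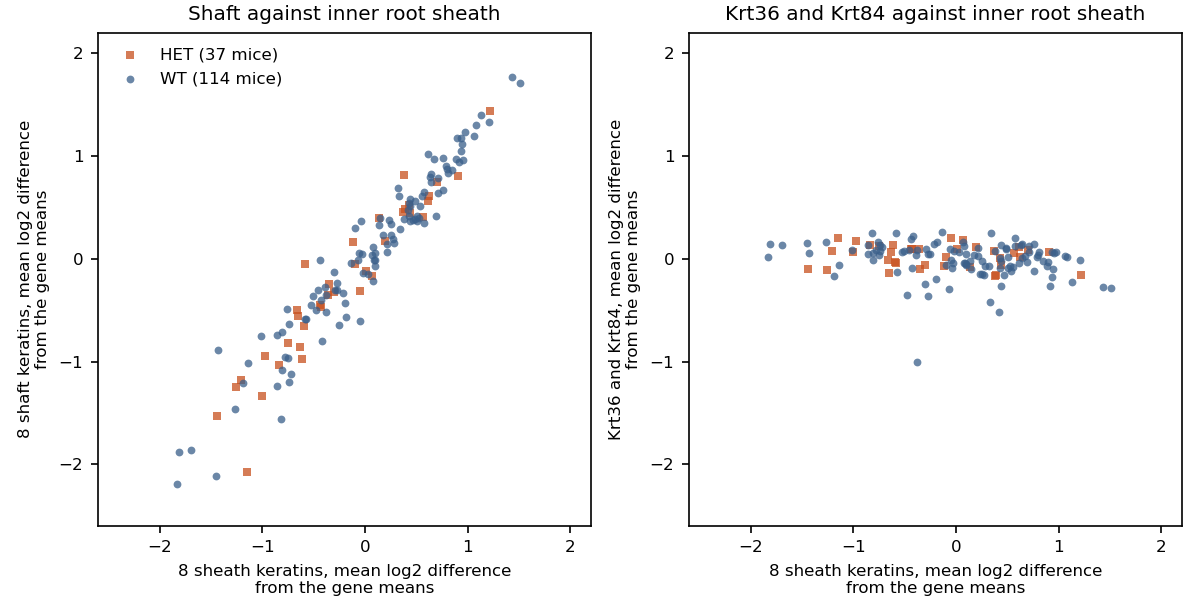
Each point is 1 mouse (squares, 37 HET mice; circles, WT mice). The mean of the 8 sheath keratins (log2, relative to the gene means) is set against the mean of 8 shaft keratins on the left and the mean of Krt36 and Krt84 on the right, on equal scales. Shaft and sheath averages fall along 1 line (r = 0.96), while Krt36 and Krt84 stay near 0 apart from 1 WT mouse far below the rest.

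Krt36 and Krt84 formed a pair of their own. Their r with each other was 0.84 (rho = 0.79, permutation p = 1.0e-05 for both, adjusted p = 1.5e-05), with 0.68, 0.96 and 0.81 on plates 1, 2 and 3 and 0.78 when the 2 mice with the most extreme Krt36 were left out. All 39 negative pairs of the whole set joined one of these 2 genes to another member. Krt84 and Krt86 had r = -0.27 (rho = -0.31, permutation p = 0.0012 and 1.8e-04, adjusted p = 0.0017; -0.47, -0.23 and -0.18 by plate, -0.33 without 2 mice). Krt36 and Krt86 had r = -0.21 (rho = -0.27, permutation p = 0.011 and 7.6e-04, adjusted p = 0.013; -0.35, -0.20 and -0.12 by plate, -0.24 without 2 mice). Neither pair was called on plate 2 or plate 3 alone. With the 2 arrays labelled outliers put back, r was -0.14 for Krt84 and Krt86 and -0.10 for Krt36 and Krt86, and neither was called (adjusted p = 0.099 and 0.26, permutation test).

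Neighbouring genes did not always move together. Krt32 and Krt35 are neighbours on chromosome 11 in GRCm38.p6 with no annotated gene between them, and their r was 0.96. Krt36 is the next gene after Krt35, also with none between, and that pair had r = -0.26. On chromosome 15, Krt84 and Krt82 are neighbours and had r = -0.29, whereas Krt82 and Krt71, with 11 annotated genes between, had r = 0.92.

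**Figure D3:**
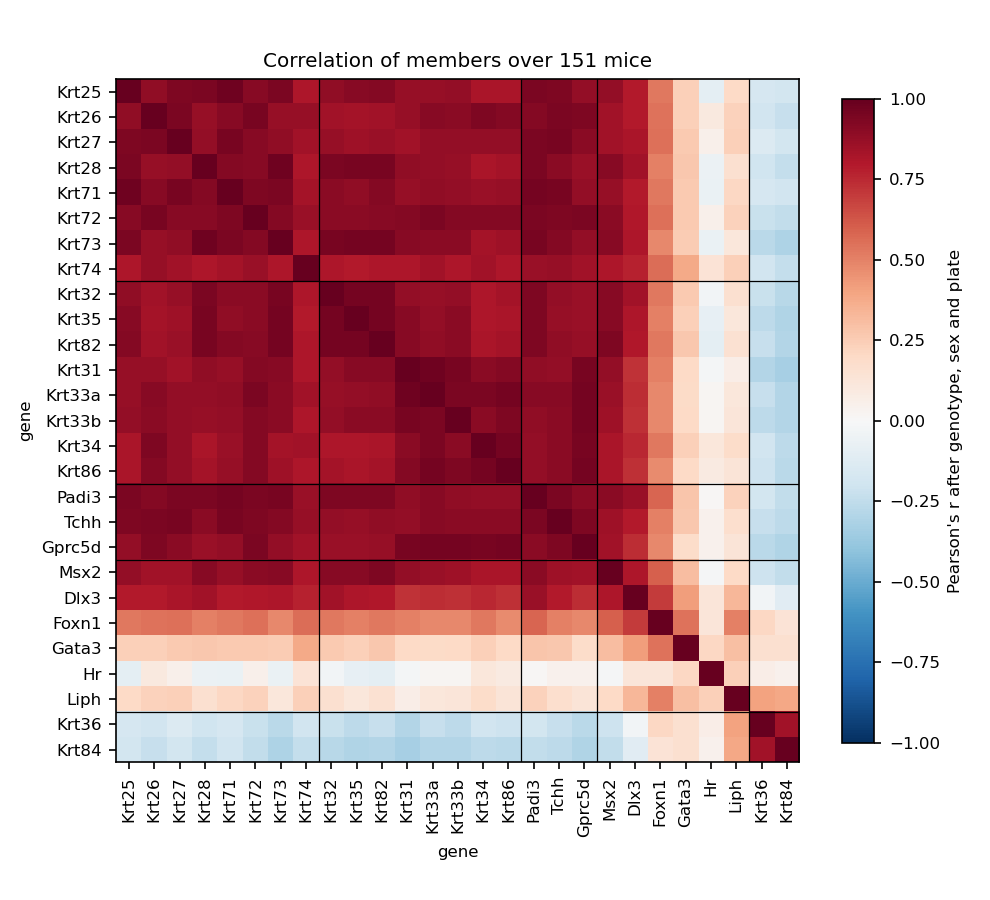
Pearson's r for each pair of the 27 genes over all mice, after genotype, sex and plate (red, positive; blue, negative). Lines separate sheath keratins, shaft keratins, the partner genes Padi3, Tchh and Gprc5d, the regulators with Liph, and the pair Krt36 and Krt84. The 16 other keratins and the partner genes form 1 block, and Krt36 and Krt84 correlate with each other at 0.84 and weakly and negatively with that block.

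The partner genes Padi3, Tchh and Gprc5d followed the keratins of both structures. Padi3 and its substrate gene Tchh had r = 0.94 (rho = 0.95, permutation p = 1.0e-05 for both, adjusted p = 1.5e-05; 0.97, 0.96 and 0.89 by plate, 0.94 without 2 mice). Tchh and Krt71 had r = 0.95 (rho = 0.94, permutation p = 1.0e-05 for both, adjusted p = 1.5e-05; 0.98, 0.98 and 0.88 by plate, 0.94 without 2 mice). Gprc5d and the cortex keratin Krt86 had r = 0.96 (rho = 0.96, permutation p = 1.0e-05 for both, adjusted p = 1.5e-05; 0.97, 0.96 and 0.94 by plate, 0.95 without 2 mice). The median r of Padi3 was 0.94 with the sheath keratins, 0.89 with the cortex keratins and 0.93 with Krt32, Krt35 and Krt82. That of Tchh was 0.93, 0.90 and 0.88 in the same order, and that of Gprc5d was 0.88, 0.96 and 0.86. Differences between these medians were not tested.

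Among the regulators, the homeobox genes had the highest r with the keratins. Msx2 and Krt86 had r = 0.82 (rho = 0.84, permutation p = 1.0e-05 for both, adjusted p = 1.5e-05; 0.86, 0.88 and 0.75 by plate, 0.82 without 2 mice), and the nearest member to Msx2 was the cuticle keratin Krt82 at 0.93. Dlx3 and Krt86 had r = 0.73 (rho = 0.78, permutation p = 1.0e-05 for both, adjusted p = 1.5e-05; 0.83, 0.70 and 0.64 by plate, 0.71 without 2 mice). Foxn1 had r = 0.53 with Krt71 (rho = 0.57, permutation p = 1.0e-05 for both, adjusted p = 1.5e-05; 0.60, 0.41 and 0.62 by plate, 0.53 without 2 mice). Foxn1 and Krt86 had r = 0.47 (rho = 0.52, permutation p = 1.0e-05 for both, adjusted p = 1.5e-05; 0.64, 0.28 and 0.44 by plate, 0.47 without 2 mice), and this pair was not called on plate 2 alone. Differences between these correlations were not tested.

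Gata3, a sheath factor, had r = 0.26 with Krt71 (rho = 0.29, permutation p = 0.0011 and 4.0e-04, adjusted p = 0.0015), and that value was 0.51 on plate 1, 0.03 on plate 2 and 0.19 on plate 3, with 0.23 without 2 mice. Liph and Krt71 had r = 0.21 (rho = 0.24, permutation p = 0.0081 and 0.0033, adjusted p = 0.0099; 0.30, 0.03 and 0.34 by plate, 0.19 without 2 mice). Hr and Krt71 were not called (r = -0.07, rho = -0.04, permutation p = 0.43 and 0.64, adjusted p = 0.44; 0.04, -0.01 and -0.05 by plate, -0.08 without 2 mice), and 24 of the 26 pairs of Hr with other members were not called. Over all 27 genes the leading axis carried 71.3% of the variance and the second 9.78%. The second axis correlated with Krt36 (0.80), Krt84 (0.78), Liph (0.73), Foxn1 (0.56) and Gata3 (0.53). With the leading axis the same genes had -0.22, -0.27, 0.20, 0.58 and 0.29, so Foxn1 followed both about equally.

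Genes outside the set were ranked by their correlation with 3 keratins, over all 18809 other genes. Nearest to Krt71 were Vsig8, a surface protein gene of the follicle (r = 0.95), and Krtap17-1 (0.94), followed at 0.93 by Lyg2, Krt75, Calhm4 and Krtap24-1. Krt75 is the keratin of the companion layer, which lies against the inner root sheath. Nearest to the shaft gene Krt86 were Krtap1-3 and Krtap9-3 (0.96 each), Krtap1-4 (0.95), and Gm11559, Krtap11-1 and Krtap4-16 (0.91 each). By symbol, 5 of these 6 are keratin-associated protein genes. For these 12 genes, rho was between 0.90 and 0.96, permutation p was 1.0e-05 for r and rho, and the adjusted p was 2.0e-04 for Krt71 and 2.4e-04 for Krt86. Their r on any 1 plate lay between 0.83 and 0.97, and without the 2 farthest mice between 0.90 and 0.95.

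None of those 12 genes was among the 6 nearest to Krt36. These were 2310034C09Rik (r = 0.82), Krtap13 (0.81), 2310057N15Rik (0.78), 2310079G19Rik (0.74), Krtap3-3 (0.65) and Tgm6, a transglutaminase gene (0.65), each with a permutation p of 1.0e-05 for r and rho, an adjusted p of 6.9e-04 and rho between 0.50 and 0.75. By plate these values were highest on plate 2, between 0.80 and 0.96, against 0.24 to 0.67 on plate 1 and 0.60 to 0.76 on plate 3. Plate 2 held the WT male with the lowest Krt36, and with the 2 most extreme mice left out, the 6 values were 0.53 to 0.73.

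Keratin-associated proteins cross-link the filaments of the shaft, and their genes as a family ran with the keratins. Of 45 measured Krtap genes, 43 were positively correlated with Krt71 and 0 negatively (median r = 0.74), and 43 with Krt86 and 0 negatively (median r = 0.84), at adjusted permutation p under 0.05. The matching shares of all genes were 8.91% for Krt71 and 7.76% for Krt86 on the positive side, and 8.80% and 7.61% on the negative side. The 2 Krtap genes not called with Krt71 were Krtap13 (r = -0.10) and Krtap6-1 (r = 0.15). With Krt36, 6 of the 45 were positive and 4 negative, where all genes gave 5.83% and 3.76%. The 6 positive ones were Krtap13, Krtap3-3, Krtap3-1 (0.54), Krtap6-1 (0.37), Krtap6-5 (0.32) and Krtap20-2 (0.24). Krtap3-1 had 0.20, 0.85 and 0.59 on plates 1, 2 and 3 (rho = 0.49, permutation p = 1.0e-05 for both; 0.47 without 2 mice).

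Genes of the hair matrix, where shaft and sheath cells are born, mostly followed the keratins of both structures. Of 12 matrix and growth phase genes, 8 were positively correlated with the shaft keratin Krt86 and 0 negatively (median r = 0.42). With the sheath keratin Krt71, 9 were positively correlated and 1 negatively (median r = 0.45), and the values below are those with Krt71. Lef1, the nuclear partner of beta-catenin, had r = 0.77 (rho = 0.80, permutation p = 1.0e-05 for both, adjusted p = 2.0e-04; 0.79, 0.76 and 0.75 by plate, 0.78 without 2 mice). Sp6, a zinc finger factor of the follicle, had r = 0.74 (rho = 0.78, permutation p = 1.0e-05 for both, adjusted p = 2.0e-04; 0.78, 0.71 and 0.76 by plate, 0.74 without 2 mice). Wnt5a, a Wnt ligand, had r = 0.64 (rho = 0.65, permutation p = 1.0e-05 for both, adjusted p = 2.0e-04; 0.65, 0.67 and 0.62 by plate, 0.62 without 2 mice). The gene on the negative side was Bmp2 (-0.24).

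Follicle stem cell genes divided. Of 8, 4 were positively correlated with Krt71 and 2 negatively. Cd34 (r = 0.06, adjusted permutation p = 0.72) and Krt15 (r = 0.07, 0.65) were not called. Lgr5, a marker of cycling cells of the lower follicle, had r = 0.74 (rho = 0.76, permutation p = 1.0e-05 for both, adjusted p = 2.0e-04; 0.79, 0.82 and 0.63 by plate, 0.72 without 2 mice). Tbx1 (0.59), Lhx2 (0.57) and Sox9 (0.41) were the other positive ones. Nfatc1, which holds follicle stem cells at rest, had r = -0.49 (rho = -0.47, permutation p = 1.0e-05 for both, adjusted p = 2.0e-04; -0.55, -0.44 and -0.46 by plate, -0.48 without 2 mice). Fgf18, a growth factor gene of the resting follicle, had r = -0.42 (rho = -0.44, permutation p = 1.0e-05 for both, adjusted p = 2.0e-04; -0.49, -0.37 and -0.43 by plate, -0.45 without 2 mice).

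Other genes of hair formation that are not members gave 7 positive and 1 negative of 10 with Krt71. Dsg4, the desmosomal cadherin of the hair, had r = 0.88 (rho = 0.90, permutation p = 1.0e-05 for both, adjusted p = 2.0e-04; 0.91, 0.86 and 0.86 by plate, 0.88 without 2 mice), and S100a3, a calcium-binding protein of the hair cuticle, had 0.85. Cell cycle genes gave 5 positive of 9 with Krt71 and 0 of 9 with Krt86. Their r lay between 0.13 and 0.29 with Krt71 and between 0.03 and 0.20 with Krt86, and the difference was not tested. Top2a had r = 0.29 with Krt71 (rho = 0.34, permutation p = 4.0e-04 and 4.0e-05, adjusted p = 0.0043; 0.24, 0.27 and 0.34 by plate, 0.32 without 2 mice). Dermal papilla genes gave 4 positive of 10, among them Fgf7 (0.42) and Rspo3 (0.41).

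Markers of other cell types in tail skin were counted in the same way. Of 7 genes of interfollicular epidermis, 4 were negatively correlated with Krt71, namely Krt14 (r = -0.40), Krt10 (-0.28), Lor (-0.27) and Krt5 (-0.24), and 1 positively, Slc1a3 (0.68). Krt14, the basal cell keratin, had rho = -0.38 (permutation p = 1.0e-05 for both, adjusted p = 2.0e-04; -0.54, -0.29 and -0.35 by plate, -0.39 without 2 mice). Krt2, a keratin of scale epidermis in the mouse tail, had r = -0.34 with Krt71 and was the 1 called of 4 scale genes when p was adjusted over all 18809 genes. Krt36 (-0.17) and Krt84 (-0.19) were called with Krt71 among the 351 pairs of members (adjusted permutation p = 0.044 and 0.023) but not over all genes (0.14 and 0.086). With Krt36, Krt84 was the 1 called of 3 other scale genes, where 5.83% of all genes were called positive. Krt2 (r = 0.15, adjusted permutation p = 0.26) and Dlx1 (r = -0.07, 0.66) did not follow Krt36. Of 7 pigment cell genes, 6 muscle genes and 6 fibroblast genes, 0 were called in either direction with Krt71. Sebaceous gland genes gave 1 negative of 5 (Far2, -0.33), adipocyte genes 1 positive (Fabp4, 0.41) and 1 negative (Pparg, -0.31) of 5, and outer root sheath and companion layer genes 2 positive of 5 (Krt75 and Krt17).

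**Figure D4:**
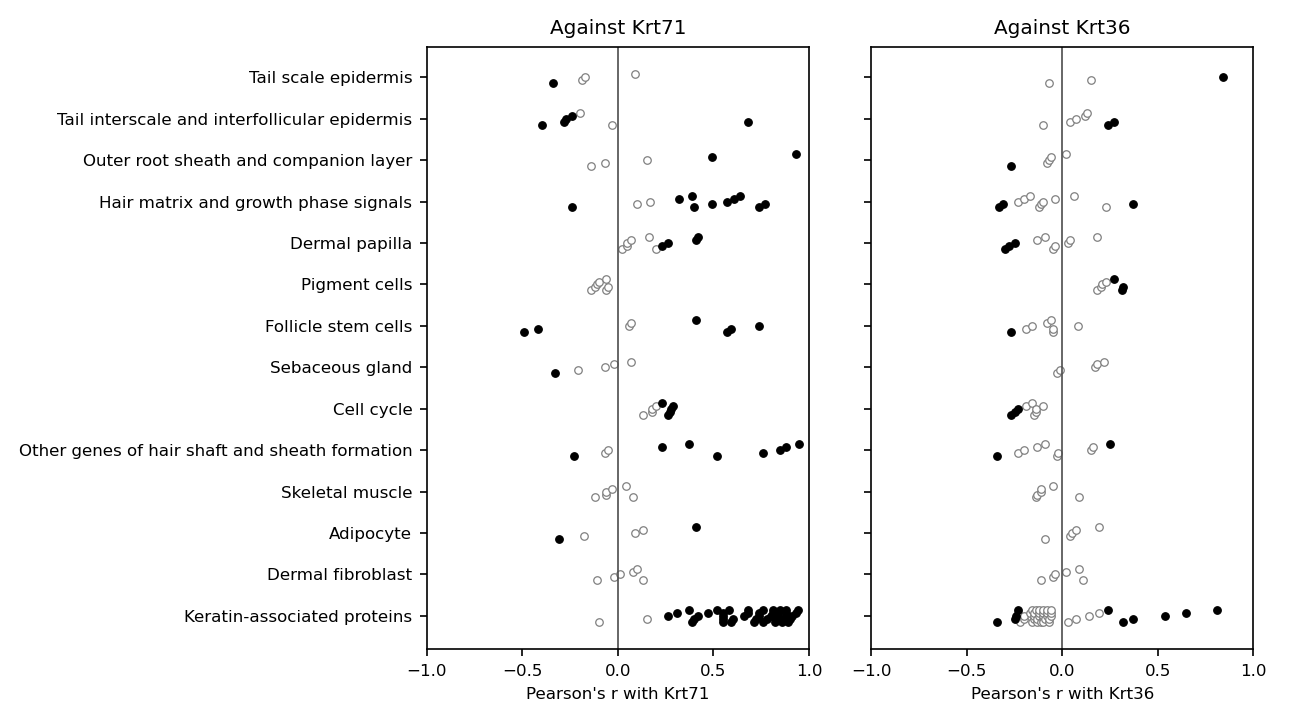
Pearson's r over all mice of genes in 14 lists with Krt71 on the left and Krt36 on the right (1 point a gene; filled, adjusted permutation p under 0.05). Keratin-associated protein genes reach 0.94 with Krt71, and most of them lie near 0 with Krt36.

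The comparison of HET and WT skin asked whether 1 null copy of Hras goes with another level of these genes. None of the 27 was called at an adjusted p under 0.05 (0 of 27, limma with genotype, sex and plate), where 0.112% of all genes were called. At an unadjusted p under 0.05, 5 of 27 were lower in HET mice (Krt72, Krt26, Krt25, Foxn1 and Krt31), against 3.31% of all genes. The differences lay between -0.36 and 0.05 (log2, HET minus WT), with a median of -0.244 over the 27 genes against 0 over all genes. Of the 27, 24 were below 0, as were 50.1% of all genes. Because the members move together over mice, their signs are not separate observations. The 3 that were not below 0 were Krt36 (0.05), Krt84 (0.03) and Hr (0.00).

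Krt72, a type II keratin of the sheath cuticle, had the smallest p. It lay between 4.81 and 7.87 with a median of 6.30 in HET mice, and between 4.67 and 8.59 with a median of 6.81 in WT mice. The difference was -0.36 ± 0.15 (SE), or 1.29-fold lower, with a 95% interval of -0.66 to -0.07 and an adjusted p of 0.63 (limma). Krt26 averaged 6.02 ± 0.71 in HET mice (SD, n = 37) and 6.33 ± 0.82 in WT mice (SD), a difference of -0.30 ± 0.15 (SE) with an adjusted p of 0.74 (limma). For Krt25 the means were 10.14 ± 0.64 in HET mice and 10.39 ± 0.66 in WT mice (SD), and the difference was -0.24 ± 0.12 (SE, adjusted p = 0.75, limma). The sign of Krt25 turned to 0.09 on plate 2 alone. Krt86 was 1.22-fold lower in the fit, with a 95% interval of -0.62 to 0.06 (log2).

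The size of the genotype difference varied with the plate. The median over the 27 genes was -0.197 on plate 1, -0.055 on plate 2 and -0.346 on plate 3. It was -0.291 in males and -0.201 in females. The mean of the 10 shaft keratins minus that of the 8 sheath keratins differed by 0.039 ± 0.035 (log2, HET minus WT, SE). On plates 1, 2 and 3 alone it was 0.058 ± 0.058, -0.064 ± 0.078 and 0.096 ± 0.045. Over all plates but without Krt36 and Krt84, a setting chosen after seeing the data, it was -0.025 ± 0.044. In the other lists 0 genes were called between HET and WT mice. The Krtap genes had a median difference of -0.20, and the pigment cell genes 0.09.

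The sexes were compared in the same model. Of the 27 genes, 3 were called, all lower in males, where 3.62% of all genes were called and 2.51% were called and lower. They were Gata3, Foxn1 and Krt25. The differences of all 27 were below 0, between -0.39 and -0.02 (log2, male minus female), against 55.1% of all genes, and their median was -0.275 against -0.006. At an unadjusted p under 0.05, 20 of 27 were lower in males, against 10.7% of all genes. Most members move together over mice, so here too their signs and calls are not separate observations.

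Gata3 lay between 8.69 and 9.75 with a median of 9.19 in males, and between 8.86 and 9.96 with a median of 9.33 in females. Its difference was -0.14 ± 0.03 (log2, SE; adjusted p = 0.010, limma). Foxn1 lay between 6.92 and 8.77 with a median of 7.81 in males, and between 7.36 and 8.94 with a median of 7.95 in females. Its difference was -0.17 ± 0.05 (SE; adjusted p = 0.015, limma). Krt25 lay between 8.42 and 11.47 with a median of 10.31 in males, and between 8.54 and 11.57 with a median of 10.60 in females. Its difference was -0.36 ± 0.10 (SE; adjusted p = 0.023, limma), or 1.28-fold lower in males. The ranges of males and females overlapped for all 3 genes.

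Other sheath genes had differences of similar size that did not pass. Krt26 had -0.39 ± 0.13 (SE, adjusted p = 0.054, limma), Krt71 -0.30 ± 0.10 (0.068) and Krt28 -0.38 ± 0.13 (0.079). Among shaft keratins, Krt35 had -0.33 ± 0.13 (adjusted p = 0.17, limma), Krt86 -0.20 ± 0.15 (0.54) and Krt84 -0.02 ± 0.02 (0.69). With the 2 outlier-labelled WT males put back, 5 genes were called, Krt26 and Krt71 in addition to the same 3. By plate, 0 were called on plate 1, 1 on plate 2 (Foxn1) and 0 on plate 3, and the median difference was -0.042, -0.460 and -0.254. It was -0.331 in HET mice, with 0 called, and -0.218 in WT mice, with 1 called (Foxn1).

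Of the 10 shaft keratins, Krt36 and Krt84 had small sex differences of -0.06 and -0.02 (log2, male minus female). The mean of all 10 shaft keratins minus that of the sheath keratins differed by 0.098 ± 0.030 (log2, male minus female, SE). It was 0.055 ± 0.038 without Krt36 and Krt84 (chosen after seeing the data), and 0.076, 0.204 and 0.027 on plates 1, 2 and 3. Several other lists differed between the sexes in the same fits, and their part in the difference of the members was not tested. Of 8 follicle stem cell genes 3 were lower in males: Lgr5 averaged 7.14 ± 0.43 in males (SD, n = 81) and 7.42 ± 0.37 in females (SD, n = 70; adjusted p = 0.0015, limma), and Cd34 and Lhx2 fell by 0.21 and 0.17. Of 7 epidermal genes, Krt14 (0.07) and Krt1 (0.11) were higher in males. Of 6 fibroblast genes 3 were higher in males, Col3a1 by 0.26, Col1a1 by 0.24 and Col1a2 by 0.20, and 1 was lower. Of 5 adipocyte genes 2 were lower, Adipoq (-0.30) and Fabp4 (-0.26), and of 5 sebaceous genes 2 were higher and 1 lower. Of 10 other genes of hair formation Tgm3, a transglutaminase gene, was higher in males (0.22, adjusted p = 0.0012, limma), opposite in sign to all 27 members. Of 10 dermal papilla genes Crabp1 (-0.21) and Bmp6 (-0.13) were lower, and of 45 Krtap genes only Krtap13 passed (-0.30).

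**Figure D5:**
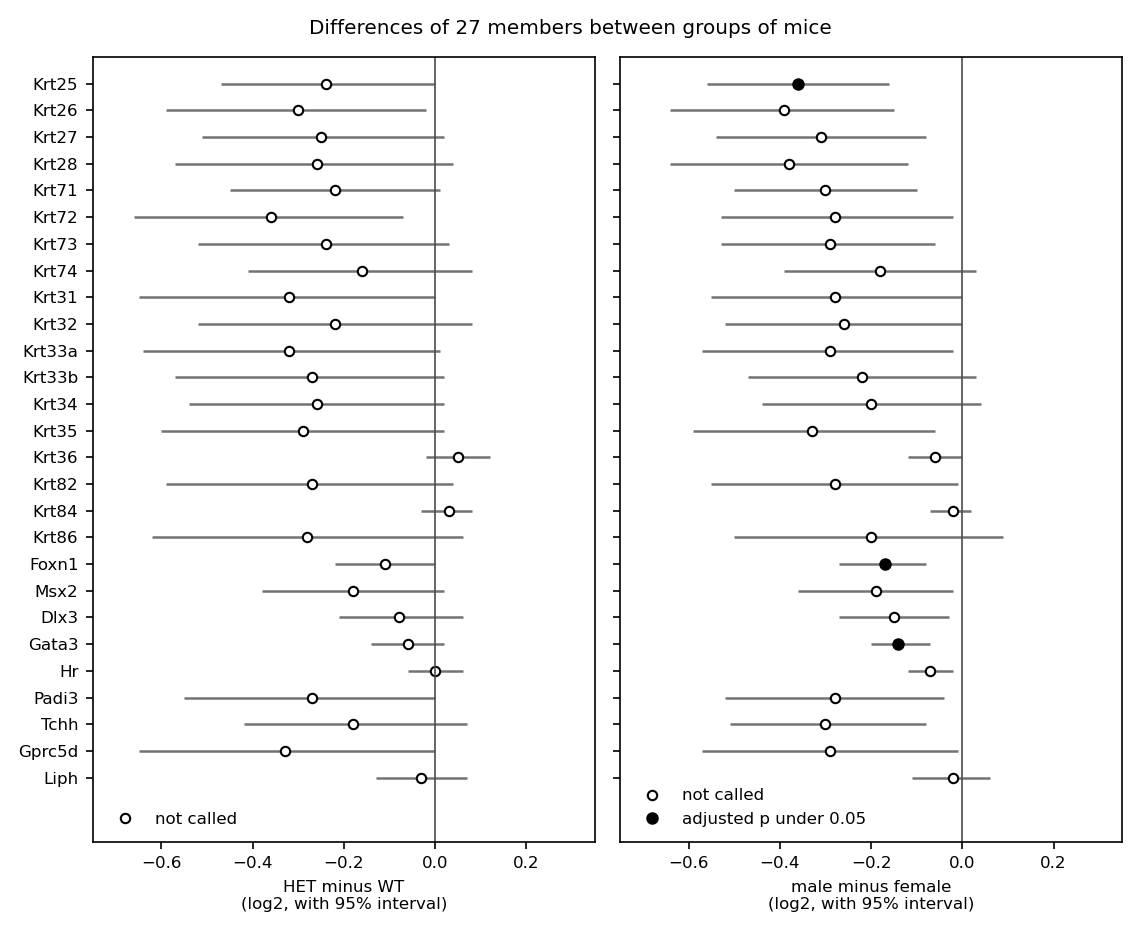
Fitted difference of each of the 27 genes (log2, points) with its 95% interval (lines), for HET minus WT on the left and male minus female on the right. Filled points passed an adjusted p of 0.05. On the right Krt25 (-0.36), Foxn1 (-0.17) and Gata3 (-0.14) passed, and on the left 0 of 27 did.

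Whether the genotype difference depends on sex was tested as an interaction. It was called for 0 of 27 genes and for 0% of all 18810, and 0 of the 27 had an unadjusted p under 0.05, against 4.76% of all genes (limma). The smallest p among the members was that of Krt36, with an interaction of 0.06 ± 0.07 (log2, SE, adjusted p = 1, limma). The intervals were wide for the variable keratins, as for Krt86 (-0.88 to 0.47). Plate differences were called for 0 of the 27 genes, where 0.0213% of all genes were called (limma, F-test over 3 plates), and the smallest p was that of Foxn1 (unadjusted 0.054, adjusted p = 1).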

How the data were processed

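The deposited log2 values, 1 per probe set and array, were made by the authors with RMA (background correction, normalization between arrays and summary of probes) per the submitters' processing notes. No source used here gives its version. Of 35556 rows, 171 were empty. Symbols came from the platform annotation (21201 probe sets with 1 symbol, 1881 with several, 12303 with none), and the highest-mean probe set with a single symbol stood for a gene. The number of mice limits precision.

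Under R 4.3.3, limma 3.58.1 (lmFit, then eBayes with trend) modelled each gene on genotype, sex and plate, with Benjamini-Hochberg adjustment over 18810 genes. A call is an adjusted p under 0.05. Both kinds of test were tried on simulated data with known answers. Correlations used residuals after the same terms and two-sided permutation tests with 100000 draws (Python 3.11.15 with scipy 1.17.1, numpy 2.4.6, matplotlib 3.10.9 and pandas 2.3.3), adjusted over 351 pairs or over 18809 genes. Files were parsed in R (data.table, version 1.17.8).

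The members, lists and tests were chosen with earlier results of these data known. Genes named are all measured members, called members or the 3 with the smallest p, fixed pairs, the 6 nearest non-members of 3 keratins, and up to 3 genes of each list by smallest p. Other list genes named were chosen after their values were seen. Krt86 replaced Krt85 in the fixed pairs after Krt85 was found to have no probe set of its own. Alternatives were other normalizations, probe set rules, filters and subsets of mice. p-values measure the spread between single mice.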

Additional observations from a re-analysis of the deposited data

How the results depend on the processing

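Repeating 40 results under alternatives gave 369 values, of which 338 kept their direction and side of the threshold or moved by less than the spread between mice. For the median differences and the shaft minus sheath differences only the last rule applied. That spread is wider than those differences, so they could vanish or turn and still be counted among the 338. The 338 therefore does not measure how well they held. Centring each array on its median, quantile normalization, averaging probe sets, leaving out dim genes, fitting without the mean-variance trend and fitting without the other terms kept 0 members called between HET and WT mice and 3 or 4 between the sexes. Averaging probe sets and leaving out dim genes could not alter a member's values, because each member had 1 probe set and 0 members were dim. Centring moved the median sex difference over all genes by only 0.012, and quantile normalization by 0.006. Members called between males and females were 5 with both outlier-labelled arrays, 0 on plate 1 alone, 1 on plate 2 alone, 0 on plate 3 alone, 1 in WT mice alone and 0 in HET mice alone. These subsets hold fewer mice. Among the named genes and fixed pairs, the sign turned in 2 values that were not called. Krt25 was 0.087 between HET and WT mice on plate 2 alone, and Hr with Krt71 had r = 0.037 on plate 1 alone. Outside that tally, the shaft minus sheath difference between HET and WT mice went from above 0 to below 0 on plate 2 alone and without Krt36 and Krt84. On plate 2 alone 17 of 27 members were below 0 between HET and WT mice, in place of 24. On plate 1 alone 20 of 27 were below 0 between the sexes, in place of 27. The cause was not tested. Of the fixed pairs, the weakest lost their call on single plates, among them Gata3 with Krt71 (r = 0.025 on plate 2) and Liph with Krt71 (r = 0.034 on plate 2). No paired analysis was possible because the labels give the mice no replicate numbers shared between groups. Krt36 and Krt84 read close to the arrays' highest values, which limits what a rise could show.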

Other observations

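The 2 arrays labelled outliers, both of WT males on plate 2, differed from each other in these genes. One lay within the range of the mice of the main fits for all 27 members, with Krt71 at 11.06, Krt86 at 10.67 and Krt31 at 10.73 (log2). The other was below all of those mice in 16 of 27 members and above them in 0, with Krt71 at 8.16, Krt86 at 6.31 and Krt31 at 5.69. Its Krt36 and Krt84 were 11.36 and 11.60, and its Foxn1 was 7.59.

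Pigment cell genes, of which 0 of 7 were called with Krt71, gave 3 positive and 0 negative of 7 with Krt36. All genes gave 5.83% positive and 3.76% negative with Krt36. The 7 genes mark 1 cell type, so the 3 calls are not separate observations. Oca2, a melanosome transporter gene, had r = 0.32 with Krt36 (rho = 0.37, permutation p = 1.0e-04 and 1.0e-05, adjusted p = 0.0033; 0.19, 0.29 and 0.47 by plate, 0.36 without 2 mice). Tyr, the enzyme that starts melanin synthesis, had 0.31 (rho = 0.36, permutation p = 1.4e-04 and 2.0e-05, adjusted p = 0.0042; 0.34, 0.27 and 0.33 by plate, 0.32 without 2 mice). Mlana had 0.27. Hoxc13, a homeobox factor that acts on hair keratin genes, was positively correlated with Krt71 (0.57) and with Krt36 (0.37). With Krt36 its r was 0.08 on plate 1, 0.49 on plate 2 and 0.51 on plate 3 (rho = 0.29, permutation p = 1.0e-05 and 2.9e-04, adjusted p = 6.9e-04; 0.31 without 2 mice).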
